A study of Mus musculus with 3 samples.

Results

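Among the tumour cells of 3 mouse rhabdoid tumours, the cells in G2 and mitosis (G2/M cells) are described here. A cell was called G2/M when it held at least 1 unique molecular identifier (UMI, a counted RNA molecule) of at least 4 of 7 genes, which were Ube2c, Ccnb1, Cenpf, Cdc20, Birc5, Nusap1 and Tpx2. It also needed at least 5000 UMIs, at most 15% of them from mitochondrial genes, and fewer than 2 of the immune genes C1qa, Tyrobp and Ctss and of the endothelial genes Cldn5, Pecam1 and Flt1. The rule took 1153 of the 28380 barcodes, or 1153 of the 9453 that met the depth, mitochondrial and cell type limits (eligible cells). Tumour 1 gave 533 of 4895 eligible cells, tumour 2 gave 184 of 2135 and tumour 3 gave 436 of 2423. They were compared with the 5337 eligible cells in which none of the 7 genes was seen. A further comparison used 401 cells in S phase, which held at least 4 of Mcm3, Mcm5, Mcm6, Gins2, Cdc6, Uhrf1 and Dtl and fewer than 2 of the 7 genes.

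Each tumour came from a different mouse, and all belong to the R26-SHH group with the genotype Rosa 26-CreERT2::Smarcb1flox/flox. In this model tamoxifen activates Cre recombinase from the ubiquitous Rosa26 locus, so loss of Smarcb1, a core subunit of the SWI/SNF chromatin remodelling complex, is not restricted to a cell type. Normal brain, immune and vessel cells of the host were taken up with the tumour, and no sort separated them. No tumour-free tissue was measured, so every comparison is between classes of cells within the same 3 tumours.

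In G2 a cell has copied its DNA and builds up the proteins of division, among them cyclin B1 (Ccnb1), which activates Cdk1 and starts mitosis. Tpx2 and Nusap1 organise spindle microtubules, Cenpf sits at kinetochores, and Birc5 (survivin) belongs to the chromosomal passenger complex. Cdc20 and Ube2c work with the anaphase-promoting complex, the ubiquitin ligase that destroys cyclin B1 and ends mitosis. Many genes of this phase share promoter elements called the cell cycle genes homology region (CHR) and the CCAAT box. The CHR is read by the DREAM and MuvB-FOXM1 complexes and the CCAAT box by NF-Y, and tumours of neural progenitors are often rich in cells that use this programme.

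The promoters of the marker genes are shown because the rule rests on their joint transcription. The 120 bases before the RefSeq start site (GRCm38.p6) are given 5′ to 3′ on the strand of the gene, with capitals for the CHR (TTTGAA or TTCGAA) and the CCAAT box on either strand (TTCAAA and ATTGG are their reverse forms). Ube2c lies on the plus strand at chr2:164769809-164769928, Ccnb1 on the minus strand at chr13:100786487-100786606, Cenpf on the minus strand at chr1:189688087-189688206 and Cdc20 on the minus strand at chr4:118437344-118437463.
Ube2c: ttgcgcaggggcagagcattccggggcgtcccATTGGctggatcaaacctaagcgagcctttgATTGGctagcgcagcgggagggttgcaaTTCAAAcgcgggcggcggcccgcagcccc
Ccnb1: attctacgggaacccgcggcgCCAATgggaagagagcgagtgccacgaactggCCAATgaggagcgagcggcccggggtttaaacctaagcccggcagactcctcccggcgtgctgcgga
Cenpf: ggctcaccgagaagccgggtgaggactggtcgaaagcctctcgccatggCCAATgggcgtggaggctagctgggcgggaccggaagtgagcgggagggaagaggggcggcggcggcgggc
Cdc20: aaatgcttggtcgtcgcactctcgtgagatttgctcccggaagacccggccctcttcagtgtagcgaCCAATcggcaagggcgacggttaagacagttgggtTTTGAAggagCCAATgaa
Ube2c and Cdc20 held both motifs, with the CHR at bases -29 to -24 and -18 to -13, while Ccnb1 and Cenpf held CCAAT boxes and neither of these CHR spellings. Birc5 and Nusap1 held neither motif in the 250 bases before the start, and for Tpx2 no promoter was matched. The same search was run over the 176 other G2 and mitosis genes of the lists used here, of which 145 had a promoter entry. A CHR stood in 32.4% of these and a CCAAT box in 60.7%, with both in 23.4%. Among all 27025 promoters of the same length the shares were 19.6%, 37.5% and 7.0%, and among 65 S-phase promoters they were 16.9%, 56.9% and 12.3%. Of 19 young neuron genes with an entry 57.9% also held a CCAAT box, so that share did not set the cell cycle lists apart, while 21.1% held a CHR and 10.5% both. A match is a description of letters, not evidence that a factor is bound.

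The cells were chosen by the UMIs of these 7 genes, so their levels are a description without a test. Levels are given as CPM (UMIs of the gene per 1e+06 UMIs) of the summed cells, in the order tumour 1, tumour 2, tumour 3, here and below. In G2/M cells Cenpf stood at 695, 645 and 666 CPM and Ube2c at 528, 340 and 412 CPM. Ccnb1 reached 252, 238 and 151 CPM, and Cdc20 148, 161 and 103 CPM. Cenpf was seen in 97.9%, 96.2% and 98.6% of the G2/M cells but Cdc20 in 67.0%, 69.0% and 70.6%, and the cells differed in how much of the set they showed. Immune cells with fewer than 4 of the genes held 8.61, 4.05 and 8.76 CPM of Ube2c. At the border of the rule, cells with 3 genes held Cenpf at 104, 153 and 85.8 CPM, and cells with 4 genes held it at 244, 198 and 165 CPM.

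Sorted by how many of the 7 genes were seen, cells were most frequent with none, and their number rose again towards all 7. Over the 3 tumours, 5337 eligible cells showed none of the 7 genes, 2156 showed 1 and 570 showed 2. Cells with 3, 4 and 5 genes were the fewest at 237, 159 and 160, and the number then climbed to 242 with 6 genes and 592 with all 7. By tumour, the fewest cells were those with 4 genes in tumours 1 and 2 (70 and 28 cells) and with 5 genes in tumour 3 (44 cells), as the plot of cells by number of genes shows.

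**Figure D1:**
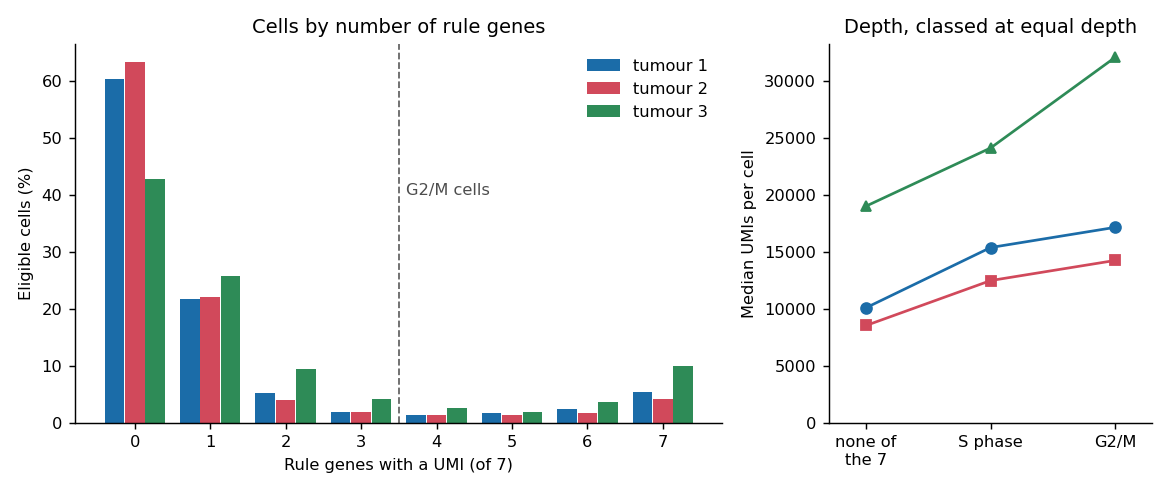
Left, share of eligible cells (%) by how many of the 7 genes had a UMI, with 1 bar per tumour and a dashed line where the rule starts. Right, median UMIs per cell in each tumour for cells with none of the 7 genes, S-phase cells and G2/M cells, all classed at 5000 UMIs per cell. In each tumour cells with 3 to 5 genes were rarer than cells with 7, and G2/M cells had the highest median UMI count.

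G2/M cells made up 10.9% of the eligible cells of tumour 1 (exact binomial 95% interval 10.0 to 11.8), 8.62% of tumour 2 (7.46 to 9.89) and 18.0% of tumour 3 (16.5 to 19.6), a mean of 12.5% ± 4.89 (SD, n = 3). Tumour 3 was also the deepest, with a median of 20134 UMIs per eligible cell against 10448 and 8829. When every cell was thinned to 5000 UMIs before the genes were counted, the shares were 7.91%, 5.53% and 11.1%, a mean of 8.16% ± 2.78 (SD, n = 3). The order of the tumours stayed the same in these thinned cells, and the interval of tumour 3 (9.84 to 12.4) lay above those of tumours 1 (7.17 to 8.70) and 2 (4.60 to 6.58). Among cells with at least 10000 UMIs, however, the shares were 17.2%, 17.6% and 19.2%, so the order of tumours 1 and 2 turned and the gap to tumour 3 nearly closed. These intervals cover counting error only, and neither share includes cells below 5000 UMIs.

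G2/M cells held more UMIs than the other cells. With cells classed at 5000 UMIs, so that a cell's total could not help it pass the rule, their median was 17159 UMIs against 10103 in tumour 1. It was 14253.5 against 8544.5 in tumour 2 and 32082 against 19025 in tumour 3. The ratios of 1.70, 1.67 and 1.69 hardly differed between the tumours (mean 1.68 ± 0.0152, SD, n = 3). All 3 tumours showed the same direction, and the exact two-sided sign-flip test gave p = 0.25, the smallest that 3 tumours allow. Against S-phase cells the ratios were 1.12, 1.14 and 1.33. The number of genes seen per 5000 UMIs was 2178, 2259 and 2246 in G2/M cells and 2093, 2170.5 and 2132 in cells with none of the 7 genes. The mitochondrial share was 3.82%, 3.96% and 3.91% against 4.36%, 4.45% and 3.99%. Droplets with more than 1 cell also hold more UMIs, and their part in the ratio was not tested. By count, 76 of 533, 15 of 184 and 46 of 436 G2/M cells stood above the Scrublet doublet score used as an alternative, against 228 of 2952, 59 of 1351 and 20 of 1034 of the cells without the genes.

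Because of this difference, a CPM value and a number of molecules per cell do not move together. In the classes that were summed, the mean number of UMIs per cell was 18498, 17008 and 34906 in G2/M cells and 10598, 9366 and 18160 in cells with none of the 7 genes. A gene present at equal UMIs per cell in both classes therefore has a fitted log2 difference near -0.82 (-0.75, -0.85 and -0.87 by tumour), which includes the scaling of the fit. Ratios of UMIs per cell given below are from these summed cells, the same as those of the CPM values, where all UMIs together had a ratio of 1.83 ± 0.0890 (mean ± SD, n = 3). For cells classed at 5000 UMIs that ratio was 1.64 ± 0.0628, and a value from them is named as such. Both scales are named below, and RNA content per cell and capture per cell cannot be told apart in these data.

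The cells were checked against markers that the rule did not use. Top2a, which untangles sister chromatids, stood at 1462, 1201 and 1188 CPM in G2/M cells, 82.9, 72.6 and 39.3 CPM in S-phase cells and 15.6, 12.2 and 14.5 CPM in cells with none of the 7 genes. The proliferation antigen Mki67 stood at 425, 429 and 486 CPM against 4.19, 3.00 and 3.09 CPM in the last class. The mitotic kinases Cdk1 (346, 318 and 258 CPM), Plk1 (70.8, 60.7 and 50.7 CPM) and Aurka (67.1, 71.6 and 55.7 CPM) and the cyclin Ccnb2 (167, 130 and 122 CPM) were at most 8.95 CPM in any tumour in the cells with none. Of the listed kinases, cyclins and anaphase regulators of G2 and mitosis, 110 of 111 tested were higher, and so were 65 of 65 spindle, kinetochore and cytokinesis genes and 83 of 83 replication genes. These lists move with the rule and are given to describe the cells, not as a finding. The mitotic markers checked were high in these cells, but the class was not free of S-phase RNA. The 7 genes that mark the S-phase class summed to 550, 486 and 638 CPM in G2/M cells against 744, 771 and 501 CPM in S-phase cells, so in tumour 3 the G2/M cells held more.

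Sox2, the transcription factor of neural progenitors, had a UMI in 67.7%, 70.1% and 72.5% of G2/M cells at 5000 UMIs, against 64.4%, 61.4% and 70.0% of cells with none of the 7 genes. In immune cells, which should lack it, the shares were 27.1%, 23.3% and 29.9%, and in the immune cells with none of the 7 genes 24.6%, 19.5% and 20%. These shares are taken as background, and the part of free RNA or of droplets with 2 cells in them was not tested. Its level was 346, 337 and 377 CPM in G2/M cells and 380, 343 and 380 CPM in the others, and the values overlap (log2 difference -0.01 ± 0.04 SE, edgeR adjusted p = 0.83). Smarcb1 gave 14, 2 and 5 UMIs in the G2/M cells of the 3 tumours, which is 1.42, 0.639 and 0.329 CPM. Immune cells held it at 21, 12.6 and 13.4 CPM and endothelial cells at 32.6, 26.2 and 48.8 CPM. Cells with none of the 7 genes lay between, at 2.37, 3.16 and 1.76 CPM. The log2 difference from them was -1.48 ± 0.37 (edgeR adjusted p = 0.00911), but no call was left without tumour 2 (-1.29) or without tumour 3 (-0.99), and without tumour 1 it was -2.30. With the glial and mural gate described below Smarcb1 did not pass the filter on low counts and was not tested. Counting starts from the 3′ end and the deleted part of the gene was not read separately, so these levels do not check the deletion itself.

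Most markers of other brain and vessel cells were lower in G2/M cells, where 24.2% of all genes tested outside the cell cycle lists were lower. None of 8 oligodendrocyte, 7 oligodendrocyte precursor (OPC), 8 astrocyte and 8 mural (vessel wall) markers tested was higher in edgeR, at an unadjusted p of 0.05 or in DESeq2, and 8, 5, 7 and 6 of them were lower (7, 4, 7 and 6 in DESeq2). Single tumours carried part of this, since 1 OPC and 4 astrocyte markers were lower without tumour 1 and 3 oligodendrocyte markers without tumour 2, while 1 mural marker was higher without tumour 3. The summed level of the oligodendrocyte markers was 275, 367 and 22.3 CPM in G2/M cells against 543, 1879 and 71.4 CPM, and that of the mural markers 68.4, 38.0 and 106 CPM against 189, 78.9 and 421 CPM. Astrocyte markers summed to 106, 149 and 65.6 CPM against 215, 267 and 185 CPM. A gate on 4 genes of each of these cell types found 14, 11 and 6 G2/M cells and 125, 91 and 29 cells among those with none of the 7 genes. Without the gated cells 2 of 6 oligodendrocyte, 0 of 4 OPC, 6 of 8 astrocyte and 0 of 6 mural markers still tested were lower, and the gate uses genes of these same cell types. The gate is named below where it ended the call of a gene or changed a count by more than 1.5 times and by more than 1 gene.

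The comparison asked which genes beyond the cell cycle differ between dividing cells and cells with none of the 7 genes, a class that also held the gated brain and vessel cells counted above. Counts were summed per tumour and class and tested with edgeR's quasi-likelihood test with the tumour as a term. Of 14681 genes outside the cell cycle lists and the rule, 6270 passed an adjusted p of 0.05, which is 42.7%. Of these, 2716 (18.5%) were higher and 3554 (24.2%) lower in G2/M cells, and the median log2 difference of all genes was -0.09. The excess of lower calls was not stable. Without tumour 1 there were 2079 higher and 1787 lower calls, without tumour 2 these were 2559 and 2470, and without tumour 3 they were 2871 and 2366. With only the 2 classes in the fit they were 2515 and 2349. At least 2-fold differences were rarer, with 370 genes (2.52%) higher and 960 (6.54%) lower. Since so many genes were called, each list below is read against the 18.5% and the 24.2%, which hold for the fit with all 3 tumours.

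The genes most raised outside the cell cycle lists were low in cells with none of the 7 genes. Mxd3, a Myc antagonist of the Max network, stood at 62.2, 54.3 and 42.3 CPM against 0.831, 0.948 and 0.799 CPM (log2 difference 6.02 ± 0.14 SE, edgeR adjusted p = 3.43e-10). The other genes among the 12 largest ran from Lrr1 (4.96) through Rtkn2 (4.81), Brip1 (4.80), C330027C09Rik (4.53), Arhgap19 (3.95), Ercc6l (3.93), Gen1 (3.90), Hist1h2bj (3.84), Traip (3.73) and Zwilch (3.62) to Hist1h2ab (3.54). They were not low in every other class. Arhgap19 stood at 18.5, 30.5 and 21 CPM in immune cells against 30.5, 46.7 and 24.7 CPM in G2/M cells, and Brip1 at 14.7, 8.71 and 8.71 CPM in S-phase cells against 24.0, 20.8 and 43.3 CPM. Several of them do the work of division or DNA repair even though they were not in the lists. Zwilch is part of a kinetochore complex, Ercc6l a helicase at anaphase bridges, Gen1 a resolvase of joined chromosomes and Brip1 a helicase of DNA repair. All 12 kept their call under every alternative other than dropping the tumour term.

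Microtubule genes split by isotype. Tuba1b, an alpha tubulin of dividing cells, stood at 1103, 1042 and 786 CPM in G2/M cells and at 216, 222 and 191 CPM in cells with none of the 7 genes. The groups lie far apart (log2 difference 2.26 ± 0.06 SE, edgeR adjusted p = 5.31e-10). Tubb5, a beta tubulin, rose from 606, 647 and 483 CPM to 1553, 1652 and 1598 CPM (1.53 ± 0.07, edgeR adjusted p = 6.25e-08). On the scale of UMIs per cell these were 8.45 ± 0.504-fold and 5.16 ± 1.05-fold (mean ± SD, n = 3). Tubb4a, a tubulin of neurons and oligodendrocytes, went the other way at 6.90, 10.2 and 4.86 CPM against 23.8, 44.5 and 12.2 CPM (-1.67, edgeR adjusted p = 3.26e-05). Of 24 tubulin and actin genes tested, 12 were higher and 4 lower, or 2 lower without tumour 2 or tumour 3. Some exon bases of Tuba1b are also annotated to a further gene on that strand, so its reads may be split.

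Genes that orient the spindle were among those that rose. Gpsm2, the adaptor that ties the spindle to the cell cortex, reached 51.9, 57.2 and 63.6 CPM against 22.5, 22.7 and 40.0 CPM (log2 difference 1.07 ± 0.12 SE, edgeR adjusted p = 4.02e-05), or 3.89 ± 0.770 times the UMIs per cell. Scrib, a scaffold of basolateral polarity, rose by 0.83 (edgeR adjusted p = 1.77e-05). Over the list of 23 apical junction and polarity genes 8 were higher and 4 lower, a median of 0.05. Of 48 genes of the primary cilium, which is taken down before mitosis, 11 were higher (7 without tumour 1) and 6 lower (10 with the glial gate). Kif24 (2.43), a kinesin that holds cilium growth back, its partner Ccp110 (0.92) and the transport gene Ift80 (0.85) were the most raised of them. Kif24 is also on a cell cycle list that moves with the rule, so its rise is a description and not a finding. It is counted among the 11, though the share over all genes leaves the cell cycle lists out.

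**Figure D2:**
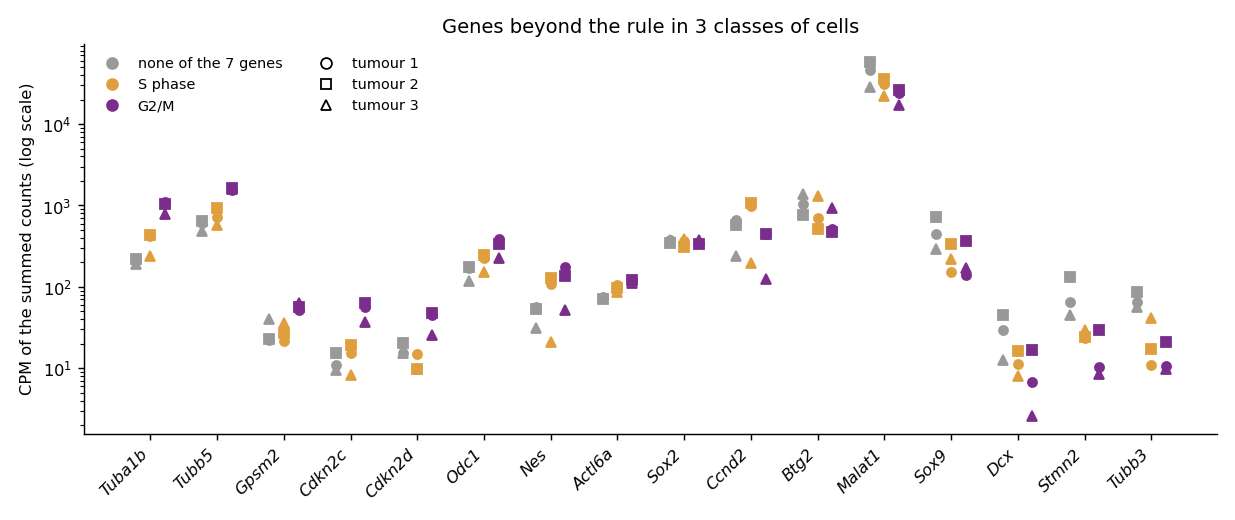
Levels (CPM of the summed counts, log scale) of 16 genes in cells with none of the 7 genes, S-phase cells and G2/M cells, with 1 symbol per tumour. Tuba1b, Tubb5, Cdkn2c and Gpsm2 stood higher in G2/M cells than in both other classes in each tumour, Sox2 lay between 309 and 387 CPM in all classes, and Stmn2 and Tubb3 were highest in cells with none of the 7 genes.

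Of the 4 Cdkn2 genes, whose products include inhibitors of the G1 kinases Cdk4 and Cdk6, 3 were higher and 1 lower in these dividing cells. Counts are per gene and do not separate the transcripts of a gene. Cdkn2c (p18) stood at 56.2, 63.6 and 37.2 CPM against 11.1, 15.4 and 9.64 CPM (log2 difference 2.17 ± 0.10 SE, edgeR adjusted p = 3.84e-08). Cdkn2d (p19) stood at 44.5, 47.6 and 26.0 CPM against 15.3, 20.2 and 15.6 CPM (1.22 ± 0.13, edgeR adjusted p = 4.69e-05). For Cdkn2c and Cdkn2d, every tumour's G2/M cells were above every tumour's other cells. In UMIs per cell, Cdkn2c was 7.93 ± 0.817 times as high. Cdkn2a stood at 27.4, 20.8 and 9.72 CPM against 8.98, 18.1 and 7.35 CPM (0.89 ± 0.23, edgeR adjusted p = 0.0107), without a call when tumour 1 was left out (0.40). Cdkn2b (p15), which was looked up after its values were known, was lower at 4.46, 3.83 and 3.94 CPM (-0.92 ± 0.17, edgeR adjusted p = 0.00134). The Cip/Kip inhibitors were also unlike each other. Cdkn1a (p21) was 0.44 higher (edgeR adjusted p = 0.00197), without a call when the cells were thinned to 5000 UMIs (0.21). Cdkn1b (p27) stood at 174, 211 and 102 CPM against 190, 214 and 108 CPM (-0.03, edgeR adjusted p = 0.579). Cdkn1c (p57) was 1.14 lower on the log2 scale (log2 difference -1.14, edgeR adjusted p = 0.0105), with 70.2, 120 and 97.0 CPM against 188, 108 and 378 CPM. Its tumour 2 went the other way, and the call was gone without tumour 1 (-0.99), without tumour 3 (-0.64) and in DESeq2 (-0.95).

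Of the D-type cyclins that drive G1, Ccnd2 fell to 448, 446 and 123 CPM from 667, 576 and 241 CPM (log2 difference -0.60 ± 0.10 SE, edgeR adjusted p = 0.000655), or -0.36 without tumour 3. In UMIs per cell it was at 1.17, 1.40 and 0.983 times the level of the other cells (mean 1.19 ± 0.211, SD, n = 3), or 0.993 ± 0.0667 in cells classed at 5000 UMIs. Ccnd1 was at 357, 378 and 403 CPM against 305, 256 and 482 CPM, in which tumour 3 ran opposite to the others (0.21, edgeR adjusted p = 0.133), and without tumour 3 it was called higher (0.50). Btg2, an antiproliferative gene of neurogenic divisions, fell to 518, 474 and 931 CPM from 1036, 762 and 1403 CPM (-0.71 ± 0.07, edgeR adjusted p = 1.19e-05). In UMIs per cell it was at 0.873, 1.13 and 1.28 times, so 2 of 3 tumours were higher on that scale. Gadd45g, a stress and cell cycle exit gene, fell from 209, 157 and 109 CPM to 103, 109 and 55.9 CPM (-0.83 ± 0.11, edgeR adjusted p = 0.000169). Of 22 genes of G1, quiescence and exit from the cycle, 6 were higher and 10 lower.

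Genes of young neurons had a lower median than the list of neural progenitor genes and that of neural stem and radial glial genes. Of 30 tested, 27 were lower in G2/M cells against a background of 24.2%, with a median log2 difference of -1.06. In edgeR 0 were higher, also at an unadjusted p of 0.05 and in DESeq2. Stmn2, a microtubule destabiliser of growing axons, stood at 10.2, 29.4 and 8.48 CPM in G2/M cells and 64.7, 130 and 45.3 CPM in cells with none of the 7 genes (-2.37 ± 0.10 SE, edgeR adjusted p = 2.21e-08). Tubb3, the neuronal beta tubulin, stood at 10.5, 20.8 and 9.79 CPM against 64.9, 86.1 and 56.7 CPM (-2.40 ± 0.11, edgeR adjusted p = 5.69e-08). Neither gene overlapped between the classes. Dcx, a microtubule-binding protein of migrating neurons, fell to 6.69, 16.9 and 2.56 CPM from 29.5, 45.5 and 12.7 CPM (-1.91 ± 0.15, edgeR adjusted p = 3.9e-06). Stmn3 (-2.09), the synaptic gene Snap25 (-2.05) and the RNA-binding gene Elavl3 (-1.40) fell with them. Sox4, which starts earlier in the lineage, fell by 0.37 (edgeR adjusted p = 0.00366), with a log2 difference of -0.21 without tumour 1.

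The fall of many neuron genes was larger than the difference in UMIs per cell. In UMIs per cell Stmn2 was at 0.348 ± 0.0671, Tubb3 at 0.351 ± 0.0789 and Dcx at 0.486 ± 0.164 times the level of the other cells (mean ± SD, n = 3). Of the 30 genes, 20 were called with a log2 difference below -0.82, the value at equal UMIs per cell, against 8.65% of all genes tested outside the cell cycle lists. The count of 27 lower genes was also 27 with the glial and mural gate and with cells thinned to 5000 UMIs, 26 in DESeq2 and 25 among cells with a Sox2 UMI. At 5000 UMIs, 2.63%, 7.07% and 2.06% of G2/M cells had a Stmn2 UMI, against 9.01%, 17.9% and 4.55% of cells with none of the 7 genes. Immune cells showed 5.83%, 13% and 1.39% (4.73%, 11.9% and 1.43% of those with none of the 7 genes). The share of G2/M cells lay below these values in tumours 1 and 2 and slightly above them in tumour 3. It is not read as expression, and immune cells are no exact background for this gene. For Tubb3 the shares were 5.44%, 9.24% and 4.59% in G2/M cells and 5.51%, 10.5% and 3.47% in immune cells, so they lay close together.

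Seen from 3 of the neuron genes, the G2/M share was lower in cells with 1 of them and lowest with 2 or 3. Among eligible cells with no UMI of Dcx, Stmn2 or Tubb3 at 5000 UMIs, 9.05%, 6.74% and 11.5% were G2/M cells. With 1 of the 3 genes the shares were 4.24%, 3.64% and 8.63%, and with 2 or 3 of them 1.26%, 1.49% and 3.57%. The last class rests on 3, 3 and 2 G2/M cells of 238, 201 and 56 cells. Its exact 95% intervals were 0.261 to 3.64%, 0.309 to 4.30% and 0.435 to 12.3%, so in tumour 3 the upper bound passes the share of cells without these genes. The interval of tumour 3 with 1 gene (5.11 to 13.5%) also holds that share.

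**Figure D3:**
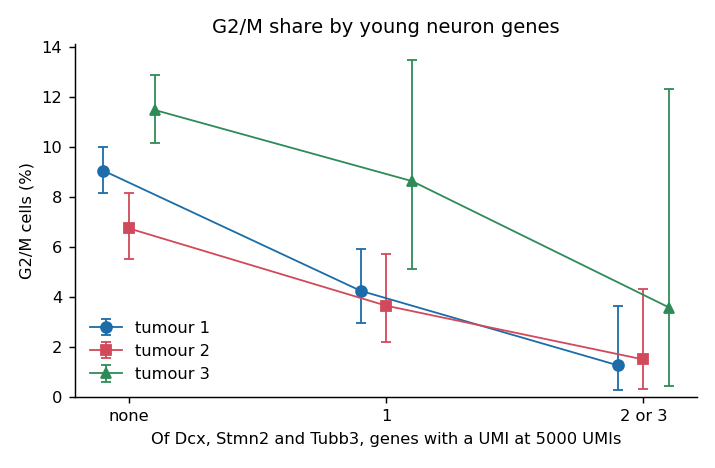
Share of G2/M cells (%) among eligible cells with none, 1, or 2 or 3 of Dcx, Stmn2 and Tubb3 seen at 5000 UMIs, per tumour, with exact 95% binomial intervals as bars. In each tumour the share was lowest in cells with 2 or 3 of the genes, and the interval of tumour 3 in that class is wide.

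The SWI/SNF complex exchanges subunits when neural progenitors leave the cycle, Actl6a (BAF53a) for Actl6b (BAF53b) among them. Actl6a stood at 117, 121 and 112 CPM in G2/M cells against 74.6, 70.3 and 72.5 CPM (log2 difference 0.72 ± 0.05 SE, edgeR adjusted p = 2.26e-06), which is 2.94 ± 0.190 times the UMIs per cell. Actl6b was rare, at 1.12, 2.24 and 0.657 CPM against 7.38, 11.2 and 2.02 CPM (-2.22 ± 0.28, edgeR adjusted p = 0.00012). The progenitor subunit Phf10 (0.06, edgeR adjusted p = 0.605) and the neuron subunit Dpf1 (0.35, edgeR adjusted p = 0.148) did not pass the test. Dpf3, a further neuron subunit, was lower at 0.913, 6.71 and 1.25 CPM against 3.84, 9.80 and 3.46 CPM (-1.20 ± 0.41, edgeR adjusted p = 0.0349), a call on few UMIs that was lost without tumour 1 (-0.91) or tumour 2 (-1.57). The shared subunits Smarcc1 (0.57), Pbrm1 (0.45) and the ATPase Smarca4 (0.40) rose. Of 30 subunits tested, 12 were higher and 7 lower (2 without tumour 1), a median of 0.07. Set against S-phase cells, 1 of 28 was higher and 0 lower, a median of 0.06. At an unadjusted p of 0.05 in edgeR these were 4 and 3, and DESeq2 called 0.

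**Figure D4:**
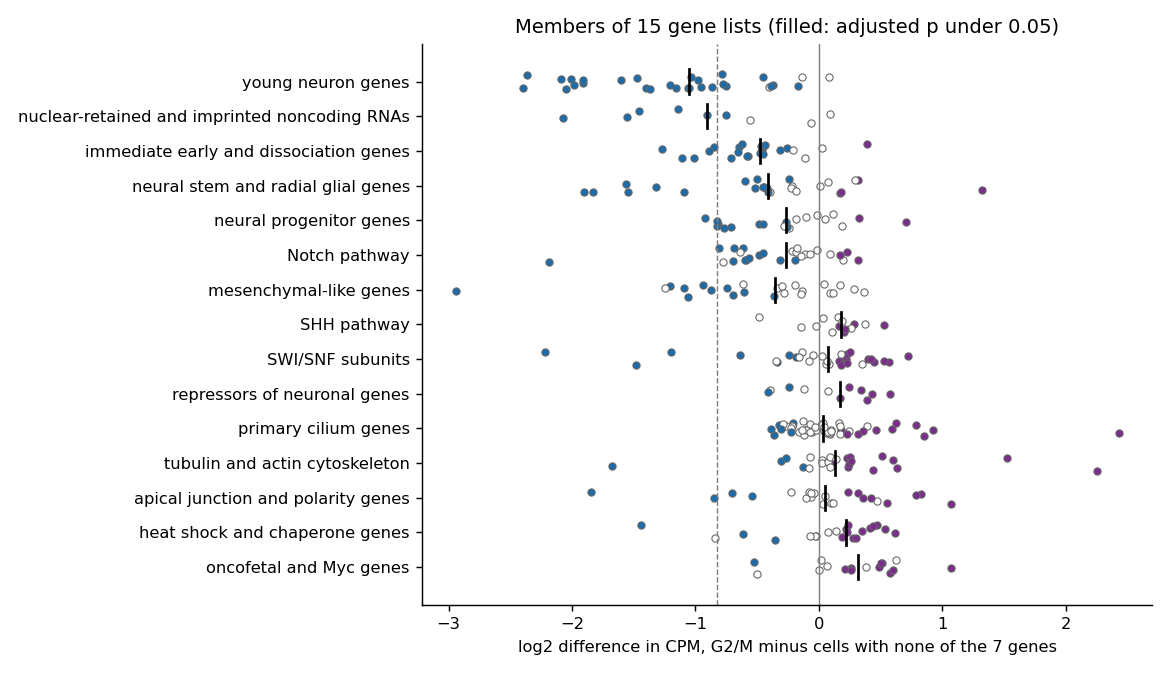
Log2 difference in CPM between G2/M cells and cells with none of the 7 genes for the tested members of 15 gene lists, filled where edgeR's adjusted p was under 0.05, with the list median as a black bar. The dashed line marks equal UMIs per cell. The young neuron genes and the nuclear noncoding RNAs have medians below that line, and the other lists have medians above it.

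Genes of progenitors stood nearer to 0 than the neuron genes, with a median log2 difference of -0.26. Dlx1 (-0.27, edgeR adjusted p = 0.0199) and Dlx2 (-0.26, edgeR adjusted p = 0.00651), homeobox genes of the ganglionic eminence, were slightly lower in CPM. Neither call was left without tumour 1 (-0.17 for both), and that of Dlx1 was also lost without tumour 2 (-0.21). In UMIs per cell Sox2 was 1.76 ± 0.161 and Dlx2 1.49 ± 0.175 times as high (mean ± SD, n = 3), against 1.83 for all UMIs. Mdk, a heparin-binding growth factor, rose by 0.71 and Neurog2, a proneural factor, fell by 0.92 on the log2 scale. Of 20 progenitor genes 2 were higher and 10 lower, or 4 and 5 without tumour 1.

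Stem and radial glial genes split as well. Nes, the intermediate filament nestin, stood at 178, 134 and 51.4 CPM against 56.7, 52.9 and 31.2 CPM (log2 difference 1.32 ± 0.14 SE, edgeR adjusted p = 3.82e-05), or 4.41 ± 1.16 times the UMIs per cell. Sox9, a stem cell and glial factor, fell to 138, 368 and 169 CPM from 443, 712 and 295 CPM (-1.10 ± 0.13, edgeR adjusted p = 6.74e-05). The secreted chaperone Clu (-1.55) and the quiescent stem cell gene Hopx (-1.56) fell with it. Of the Id genes, which hold back differentiation, Id2 (-0.41, edgeR adjusted p = 0.00993) and Id3 (-0.24, edgeR adjusted p = 0.0101) were lower. The call of Id2 was lost without tumour 1 (-0.26), and that of Id3 without tumour 2 (-0.13) or tumour 3 (-0.18). Id1 (-0.40, edgeR adjusted p = 0.0592) and Id4 (0.08, edgeR adjusted p = 0.427) did not pass, and without tumour 2 Id1 was called (-0.52). Of 25 genes of the list 4 were higher (2 without tumour 1) and 14 lower.

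In the Notch pathway, through which neighbouring progenitors keep each other undifferentiated, 12 of 26 genes were lower and 3 higher, but without tumour 1 these were 5 and 0. The receptor Notch1 fell to 11.7, 13.1 and 36.2 CPM from 17.5, 25.8 and 55.8 CPM (log2 difference -0.61 ± 0.10 SE, edgeR adjusted p = 0.000528). The ligand Dll1 was at 65.0, 61.4 and 79.8 CPM against 114, 98.3 and 91.8 CPM (-0.49, edgeR adjusted p = 0.00365), a call lost without tumour 1 (-0.31) or tumour 2 (-0.41). Dll3, a ligand that acts within the cell, was also lower (-0.45, edgeR adjusted p = 0.00875), but not without tumour 1 (-0.27). In the Hes family, Hes5 was lower (-0.60, edgeR adjusted p = 0.00466), Hes1 higher (0.17, edgeR adjusted p = 0.0235) and Hes6 not called (-0.18, edgeR adjusted p = 0.269). The call of Hes5 was lost without tumour 1 (-0.43) or tumour 2 (-0.47), and that of Hes1 without tumour 1 (0.19) or with the glial gate (0.14). Hes6 turned to 0.08 without tumour 1, and without tumour 3 it was called lower (-0.39).

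Hedgehog targets report the activity of the pathway for which the tumour group is named. Gli1, the transcription factor it induces, was at 16.5, 16.9 and 12.0 CPM against 14.7, 14.5 and 9.48 CPM (log2 difference 0.29 ± 0.10 SE, edgeR adjusted p = 0.0433). Its call was lost under 13 of 19 alternatives, leaving out any tumour (0.31 to 0.35) and the glial gate (0.27) among them. The receptor Ptch1 was at 333, 384 and 321 CPM against 311, 320 and 317 CPM (0.17, edgeR adjusted p = 0.0263), with no call without tumour 1 (0.21) or tumour 2 (0.14) or with the glial gate (0.12). Hhip, a membrane antagonist and target, rose by 0.53 (edgeR adjusted p = 0.00048). Of 14 pathway genes 5 were higher (3 in DESeq2) and 0 lower, also at an unadjusted p of 0.05 in edgeR and in DESeq2, or 2 higher with the gate, without tumour 1 or with cells classed at 5000 UMIs. Ptch1 was 2.00 ± 0.162 times as high in UMIs per cell, against 1.83 for all UMIs.

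Of 11 repressors of neuronal genes, 6 were higher and 2 lower in G2/M cells (1 lower without tumour 1 or tumour 3). Rest, the silencer of neuronal genes, stood at 98.0, 106 and 99.2 CPM against 83.4, 92.4 and 88.4 CPM (log2 difference 0.25 ± 0.05 SE, edgeR adjusted p = 0.00181), without overlap. Its corepressors Hdac1 (0.57, edgeR adjusted p = 3.8e-05) and Hdac2 (0.39, edgeR adjusted p = 9.76e-05) rose too. Rest was 2.10 ± 0.0549 times as high in UMIs per cell. Set against S-phase cells, 0 of the 11 were higher and 1 lower (2 and 2 at an unadjusted p of 0.05), a median of -0.07. In that comparison 3.85% of all genes tested outside the cell cycle lists were higher and 2.35% lower.

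Immediate early genes are induced within minutes by growth signals and by tissue dissociation. Of 23 tested, 19 were lower and 1, Ier5 (0.39), was higher, with a median log2 difference of -0.48. Fos fell to 1371, 2152 and 1520 CPM from 2149, 2843 and 2102 CPM (-0.46 ± 0.05 SE, edgeR adjusted p = 2.7e-05), where tumour 2 of the first class overlaps the second. Jun fell to 505, 525 and 420 CPM from 719, 788 and 575 CPM (-0.47 ± 0.04, edgeR adjusted p = 1.2e-05). Junb (-0.65) and the stress factor Atf3 (-1.27) fell too. Per cell, however, Fos stood at 1.29 ± 0.155 and Jun at 1.28 ± 0.106 times the UMIs of the other cells (1.11 and 1.15 times when classed at 5000 UMIs), and 5 of the 23 genes were lower by more than the difference in UMIs per cell.

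Several of the nuclear-retained and imprinted noncoding RNAs were lower. Malat1 stood at 23918, 26343 and 17175 CPM in G2/M cells against 46611, 58418 and 28633 CPM (log2 difference -0.90 ± 0.06 SE, edgeR adjusted p = 1.45e-06), without overlap. Neat1, the scaffold of paraspeckles, stood at 105, 153 and 86.2 CPM against 214, 372 and 208 CPM (-1.14 ± 0.06, edgeR adjusted p = 1.33e-07). In UMIs per cell Neat1 was at 0.798 ± 0.0549 times the level of the other cells (0.639 ± 0.0868 when classed at 5000 UMIs). Malat1 was at 0.896, 0.819 and 1.15 times, so tumour 3 went the other way (0.855, 0.721 and 1.02 when classed at 5000 UMIs). Meg3, an imprinted RNA of neurons, fell to 76.7, 499 and 37.5 CPM from 318, 1144 and 118 CPM (-1.55 ± 0.17, edgeR adjusted p = 4.29e-05). Of 9 genes tested 6 were lower (5 without tumour 1 or tumour 2, and 4 among cells with a Sox2 UMI) and 0 higher, also at an unadjusted p of 0.05 and in DESeq2. The share of nuclear RNA also varies with the state of cells after dissociation, and the mitochondrial shares given above differed by less than 1 percentage point between the classes. Their part in the result was not tested.

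Growth genes were among those that rose. Odc1, the rate-limiting enzyme of polyamine synthesis, reached 386, 332 and 229 CPM against 171, 174 and 118 CPM (log2 difference 1.07 ± 0.06 SE, edgeR adjusted p = 1.71e-07). The nucleolar genes Ncl (0.51) and Npm1 (0.48) rose, and of 16 oncofetal and Myc genes 9 were higher and 1 lower. Of 21 chaperones 12 were higher and 3 lower, or 1 lower without tumour 1 or tumour 3 and in DESeq2. The raised ones included Hsp90b1 of the endoplasmic reticulum at 505, 369 and 524 CPM against 302, 242 and 407 CPM (0.62 ± 0.07, edgeR adjusted p = 3.76e-05) and Hsp90aa1 of the cytosol 0.54 higher. The glycolytic enzymes Gapdh (0.83) and Pgk1 (0.68) rose, while of 24 genes of hypoxia and glycolysis 5 were higher and 7 lower (4 without tumour 1). The 12 genes lowered most were led by products of other brain and vessel cells. Ptgds (-4.37), Hbb-bs (-3.40), Rgs5 (-3.15), Ttr (-3.03) and Trf (-2.84) belong to meninges or oligodendrocytes, blood, mural cells, choroid plexus and oligodendrocytes. With the glial and mural gate Rgs5 was at 0.09, Trf at -0.02 and Apod, a further one (-2.24), at -0.85, all without a call. Several of these sizes rested on single tumours. Ptgds was at -5.20 without tumour 2 and -2.53 with the gate, Rgs5 at -4.63 and Trf at -1.96 without tumour 3, and Apod at -3.94 without tumour 2 and -1.45 without tumour 3. Ttr moved most, with -0.86 without tumour 1 and -9.36 without tumour 2, and its call was lost under 6 of 19 alternatives, without tumour 3 (-2.82) among them. Hbb-bs was at -2.10 without tumour 1 and -4.38 without tumour 2, and lost its call without tumour 3 (-3.22), and Apod lost its call without tumour 1 (-1.92). The neuronal and secretory genes St18 (-2.70) and Chgb (-2.63) and the matrix genes Mgp (-2.59) and Igfbp7 (-2.26) kept their calls in these settings. Their sizes moved, with Igfbp7 at -1.65 and Mgp at -3.03 with the gate. Among cells with a Sox2 UMI St18 was at -2.31, Chgb at -1.81, Mgp at -1.79 and Igfbp7 at -1.04. Igfbp5 (-0.75) and the collagen gene Col1a2 (-1.09) fell with them. Of 24 mesenchymal-like genes 10 were lower and 0 higher (1 at an unadjusted p of 0.05, 0 in DESeq2). Lower and higher genes were 9 and 1 with the gate and 5 and 2 among cells with a Sox2 UMI, and 4 were higher without tumour 3.

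Set against S-phase cells, which also divide, fewer genes differed. Of 11451 genes tested outside the cell cycle lists, 710 (6.2%) passed the threshold, 441 (3.85%) higher and 269 (2.35%) lower in G2/M cells. Without tumour 1 the count was 341 and without tumour 3 it was 394, and with cells classed at 5000 UMIs it was 388. The S-phase sums were small, at 2580055, 1033695 and 4247654 UMIs against 9859641, 3129519 and 15218862 in G2/M cells. Of 29 young neuron genes 0 were higher and 6 lower (1 lower without tumour 1, and 1 higher and 13 lower at an unadjusted p of 0.05), and of 13 hedgehog and 22 Notch genes 0 were called in edgeR or in DESeq2. At an unadjusted p of 0.05 in edgeR, 3 hedgehog genes were lower, and 2 Notch genes were higher and 4 lower. DNA replication genes did not part the classes cleanly, since 29 of 83 were higher and 2 lower in G2/M cells (16 and 6 without tumour 3), but 3 higher and 37 lower when cells were classed at 5000 UMIs.

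Cdkn2c, Cdkn2d and Cdkn1a were also higher than in S phase, while Cdkn1b and Cdkn1c were not called, Cdkn1b at 0.17 (edgeR adjusted p = 0.246) and Cdkn1c at -0.29 (edgeR adjusted p = 0.699). With cells classed at 5000 UMIs Cdkn1b was called (0.55) and Cdkn1c stood at 0.84. Cdkn2a was higher by 1.14 (edgeR adjusted p = 0.00543), a call lost without tumour 1 (1.13), with thinned cells (0.94) and with cells classed at 5000 UMIs (0.65). Cdkn2c was at 15.5, 19.3 and 8.24 CPM in S-phase cells, so G2/M cells were 1.96 ± 0.14 (SE) higher on the log2 scale (edgeR adjusted p = 2.98e-05). Cdkn2d was at 15.1, 9.67 and 9.89 CPM there (1.64 ± 0.17, edgeR adjusted p = 0.000436), and Cdkn1a at 28.7, 27.1 and 5.65 CPM against 55.2, 73.5 and 16.3 CPM in G2/M cells (1.25 ± 0.15, edgeR adjusted p = 0.00109). The D-type cyclins Ccnd1 and Ccnd2 were lower in G2/M than in S phase. Ccnd1 stood at 610, 611 and 692 CPM in S phase (-0.74 ± 0.05, edgeR adjusted p = 2.38e-05) and Ccnd2 at 984, 1072 and 199 CPM (-1.02 ± 0.09, edgeR adjusted p = 0.000171). Every tumour showed these directions for Cdkn2c, Cdkn2d, Cdkn1a, Ccnd1 and Ccnd2, and none of these 5 calls was lost under any alternative that kept the tumour term.

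Single tubulin, spindle and growth genes were higher than in S phase too, while the medians of their lists were small. Of 24 tubulin and actin genes 4 were higher, and of 21 apical junction and polarity genes 1. Of 21 chaperones 2 were higher, and of 15 oncofetal and Myc genes 1. DESeq2 called 3, 1, 2 and 1 of them higher. Among all genes tested outside the cell cycle lists 3.85% were higher in edgeR. The list medians were 0.09, -0.02, 0.02 and -0.05. Tuba1b stood at 422, 433 and 238 CPM and Tubb5 at 714, 931 and 583 CPM in S phase, so G2/M cells were higher by 1.48 ± 0.08 (edgeR adjusted p = 3.9e-06) and 1.16 ± 0.09 (edgeR adjusted p = 6.34e-05). Gpsm2 was higher by 1.04 (edgeR adjusted p = 0.00109), Ift80 by 0.80 (edgeR adjusted p = 0.00231), Odc1 by 0.62 (edgeR adjusted p = 0.00103) and Hsp90b1 by 0.55 (edgeR adjusted p = 0.000385). Nes was higher by 0.70 (edgeR adjusted p = 0.0434), but not without tumour 1 (0.69) or tumour 3 (0.47), nor with cells classed at 5000 UMIs (0.14).

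The largest differences from S phase outside the lists were much the same genes as before on the upper side. They were Rtkn2 (5.59), Mxd3 (4.63), Hist1h2bj (3.69), Arhgap19 (3.53), C330027C09Rik (3.34), Gen1 (3.20), Hist1h2ab (3.07) and the myelin gene Mal (3.04, or 1.80 and not called without tumour 1). Genes rare in S-phase cells can pass the filter on low counts through the G2/M class alone. These sizes are therefore given as a description. Rtkn2 was at 4.98 without tumour 1 and 6.33 without tumour 2, and Arhgap19 at 4.43 without tumour 1 and 2.93 without tumour 3. With cells classed at 5000 UMIs Rtkn2 was at 2.25, Mxd3 at 3.1, Hist1h2bj at 2.10 and Gen1 at 1.59. Mal rested on few S-phase UMIs, 3, 9 and 1 against 294, 105 and 5 in G2/M cells. The oligodendrocyte marker Cldn11 moved with it, with 3, 3 and 0 UMIs in S-phase cells against 127, 68 and 6, and it passed the filter on low counts only through the G2/M class. Neither gene passed that filter without tumour 2 or with the glial gate, so no rise of oligodendrocyte markers is read from them. On the lower side were Ucp2 (-1.25), Tenm1 (-1.17), Ccnd2, Cd200 (-0.99), Rab6b (-0.99), Fst (-0.96), Adamts19 (-0.88) and Gdap1 (-0.88). Apart from Ccnd2 and Fst, each of these lost its call without 1 tumour or more. Without tumour 1 these were Ucp2 (-1.30), Tenm1 (-1.20), Adamts19 (-0.57) and Gdap1 (-0.70). Without tumour 2 they were Ucp2 (-1.04) and Cd200 (-0.74), and without tumour 3 Tenm1 (-0.86), Cd200 (-0.95), Rab6b (-0.85) and Gdap1 (-0.99). The call of Fst was lost in DESeq2 (-0.97) and that of Cd200 with the glial gate (-1.01).
Malat1 was 0.38 lower than in S phase (log2 difference -0.38 ± 0.02 SE, edgeR adjusted p = 2.38e-06), Id3 was 0.41 lower (log2 difference -0.41, edgeR adjusted p = 0.00595) and Btg2 0.34 lower (log2 difference -0.34, edgeR adjusted p = 0.0155). With cells classed at 5000 UMIs none of the 3 calls was left (-0.14, -0.54 and 0.01), and that of Btg2 was also lost without tumour 1 (-0.30) or tumour 3 (-0.27).

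The G2/M cells also differed among themselves. At 5000 UMIs per cell they were split into those with 4 or 5 and those with 6 or 7 of the genes, as a description with no test. Cdkn2c rose from 50, 80.8 and 37.7 CPM to 80.6, 118 and 75.2 CPM, and was 11.2, 15.6 and 9.71 CPM in cells with none. Cdkn2d went from 34.7, 34.6 and 31.4 CPM to 55.5, 81.8 and 47.7 CPM, and Gpsm2 from 35.7, 76.9 and 56.6 CPM to 62.8, 81.8 and 82.6 CPM. Tuba1b was at 1097, 1123 and 962 CPM with 4 or 5 genes and 1272, 1185 and 993 CPM with 6 or 7. Each of these was higher in 3 of 3 tumours in the cells with more of the genes.

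Other genes ran the opposite way within the G2/M cells. Ccnd2 went from 389, 523 and 153 CPM with 4 or 5 genes to 342, 327 and 97.2 CPM with 6 or 7. Fos went from 1393, 2015 and 1420 CPM to 1184, 1664 and 1229 CPM, and Jun from 596, 596 and 467 CPM to 422, 376 and 374 CPM. Cdkn1a was at 53.1, 104 and 22.6 CPM with 4 or 5 genes and 29.3, 66.7 and 7.34 CPM with 6 or 7, so it was lower in the cells with the most mitotic genes although it was higher in G2/M cells as a whole. These were lower in 3 of 3 tumours. Malat1 was level between both sets, at 23112, 25446 and 16262 CPM and 22046, 26064 and 17244 CPM, after its fall from cells with none of the genes.

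**Figure D5:**
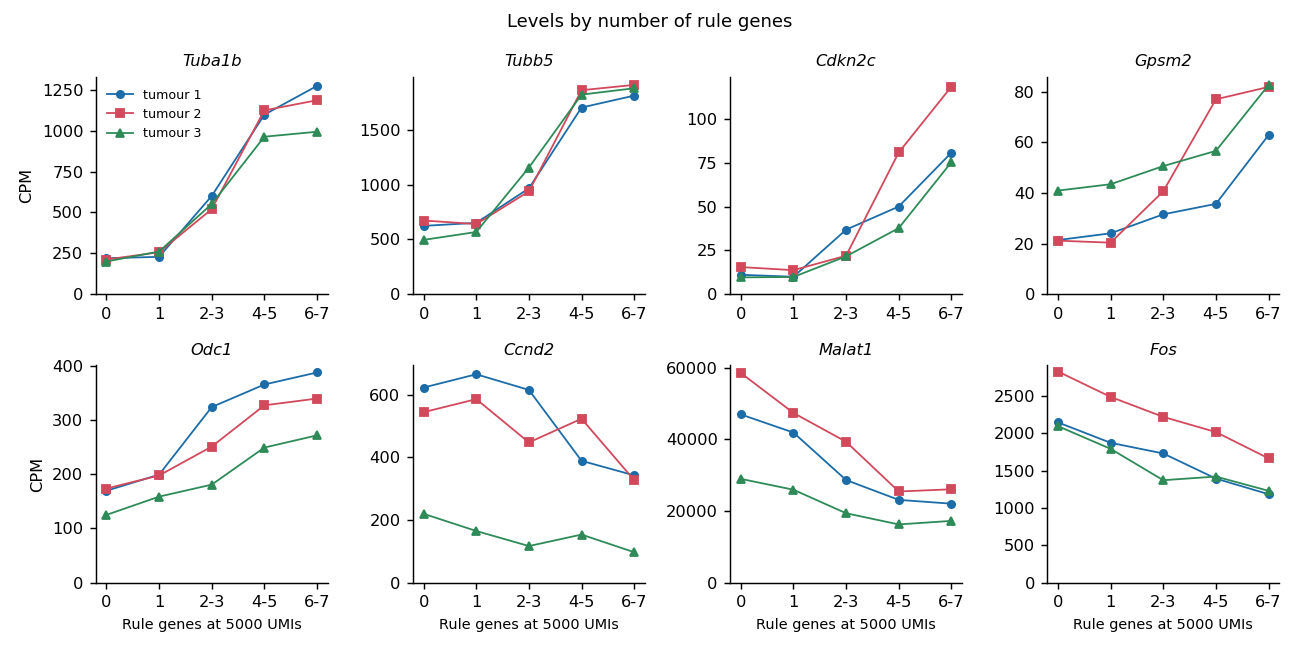
Level (CPM of the summed counts) of 8 genes in eligible cells with 0, 1, 2 or 3, 4 or 5, and 6 or 7 of the rule genes at 5000 UMIs, with 1 line per tumour and axes that start at 0. Tuba1b, Tubb5, Cdkn2c, Gpsm2 and Odc1 were highest in cells with 6 or 7 genes in each tumour, and Fos was lowest there.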

How the data were processed

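Fresh tumours were dissociated and run on 10x 3′ droplet libraries. The deposited files hold raw UMI counts per gene and barcode, which the authors had aligned to mm10 and counted in Cell Ranger 3.1.0 (per the submitters' processing notes), without normalisation. The 3 libraries held 12467, 9485 and 6428 barcodes and 79529921, 40151353 and 67645602 UMIs. Pairs of libraries shared 22 to 42 barcodes, and no G2/M cell was shared. Free RNA and doublets were not corrected for, except in an alternative with Scrublet (scanpy 1.11.5), whose own threshold marked too few cells, so a rate of 0.8% per 1000 barcodes was used.

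Counts were summed per tumour and class and tested in edgeR 4.0.16 (R 4.3.3; quasi-likelihood, TMM, filterByExpr, terms for tumour and class) with Benjamini-Hochberg adjustment over all genes tested. The first fit held 9 sums (at least 4, 1 to 3 or none of the 7 genes), the second 6. The tumour term pairs sums from the same animal. DESeq2 1.42.0, other thresholds, thinning to 5000 UMIs, gates and leaving out each tumour were alternatives. The test was checked on simulated counts. Levels are plain CPM and log2 differences are TMM-adjusted, and differences between genes were not tested. Positions come from RefSeq GRCm38.p6.

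A gene was named when it was on a list of 43 or of the rule genes, was among the 12 (first comparison) or 8 (second) largest called differences in each direction with a mean of at least 20 CPM, or was a leading member of a list. Further list members were added to show a group. A gene of the list of 43 is not reported here. The members and lists were chosen with earlier results of these data known. One genotype and 3 animals limit the p-values to these tumours.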

Additional observations from a re-analysis of the deposited data

Results flagged for a closer look

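Cells that the immune gate removed also showed the G2/M genes. At least 4 of the 7 genes were seen in 7.46% of the immune-gated cells of tumour 1 (46 of 617), 5.44% of tumour 2 (31 of 570) and 18.1% of tumour 3 (26 of 144), a signal in cells outside the classes that were compared. The immune-gated cells serve as background for Sox2, Stmn2 and Tubb3, and their totals there include these cells. These cells held the microglial gene C1qa at 2099, 862 and 1388 CPM against 4536, 3290 and 4167 CPM in immune-gated cells with none of the 7 genes. Sox2 stood at 201, 219 and 286 CPM in them against 111, 98.7 and 136 CPM, and Smarcb1 at 17.3, 0 and 8.45 CPM against 23.7, 16.2 and 15.5 CPM. Their median UMI count was 19064.5, 15822 and 31774.5 against 10405, 8073 and 19207.5. Whether these are dividing immune cells, droplets with 2 cells or free RNA was not tested.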

How the results depend on the processing

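Without the tumour term the same sums gave 910 calls against cells with none of the 7 genes and 47 against S-phase cells, of which 68.4% and 97.9% were higher. This fit without the replicate block drops the pairing of sums from the same animal and treats differences between tumours as error. Leaving out 1 tumour gave 3866 to 5237 calls in the first comparison and 341 to 589 in the second. In the second, DESeq2 gave 379, no filter on low counts 1322, and cells classed at 5000 UMIs 388, where 212 of the 710 calls in the report were also called and 34 of the 710 had turned direction. The higher share of its calls went from 62.1% to 49.6% with cells thinned to 5000 UMIs. The mean G2/M share rose to 18.0% with at least 10000 UMIs and ran from 8.16% to 15.2% in the other settings.

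Some values turned sign, most of them near 0 from the start. Rgs5 (-3.15) and Btg2 against S phase (-0.34) had been called. Sox2 was 0.011 (RLE size factors), 0.010 (DESeq2), 0.011 (classed at 5000 UMIs), 0.015 (at least 3 of the 7 genes, and at least 5), 0.025 (at least 6), 0.017 (upper UMI limit), 0.031 (only the 2 classes compared), 0.034 (thinned cells) or 0.040 (at least 2000 UMIs), and 0.0056 to 0.054 without 1 tumour. Cdkn1b was 0.011 (2 classes), 0.0073 (cells with a Sox2 UMI), 0.041 (at least 6 genes), 0.0040 (thinned) or 0.095 (classed at 5000 UMIs), and -0.024 to 0.037 without 1 tumour. Phf10 ran from -0.017 to 0.20 and Hes6 from -0.39 to 0.078 without 1 tumour. Id4 was -0.060 with at least 10000 UMIs, Ccnd1 -0.036 when classed at 5000 UMIs, Rgs5 0.089 with the gate and Btg2 against S phase 0.0088 when classed at 5000 UMIs. Cdkn1c against S phase was 0.84 when classed at 5000 UMIs and ran from -0.73 to 0.63 without 1 tumour, and its uncalled value of -0.29 was not near 0. The cause was not tested. Depth limits Smarcb1 and Actl6b, which rest on few UMIs.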

Other observations

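Lists not described in the report were also compared between G2/M cells and cells with none of the 7 genes. Of 16 imprinted growth genes 3 were higher and 6 lower. Without tumour 1 these were 1 and 3, and without tumour 3 the lower genes were 2. Mest, an imprinted enzyme of the mesoderm, rose to 236, 142 and 121 CPM from 141, 99.3 and 103 CPM (log2 difference 0.55 ± 0.09 SE, edgeR adjusted p = 0.000603). Nnat, an imprinted membrane protein of neurons, fell to 70.4, 198 and 205 CPM from 241, 283 and 288 CPM (-0.86 ± 0.20, edgeR adjusted p = 0.00602), or -0.44 without tumour 1. Of 17 p53 target genes 5 were higher and 3 lower, with 1 higher when cells were thinned to 5000 UMIs, 3 higher without tumour 1 and 1 lower without tumour 3. Among markers of other cells, 5 of 14 immune, 3 of 8 endothelial, 3 of 7 ependymal and choroid plexus and 2 of 4 red blood cell genes were lower and 0 higher, also at an unadjusted p of 0.05. The immune list holds the gate genes C1qa, Tyrobp and Ctss, and the endothelial list holds Cldn5, Pecam1 and Flt1. Both classes of cells were chosen by these genes, so the counts of both lists are a description only. DESeq2 called 0 immune, 2 endothelial, 2 ependymal and 1 red blood cell gene lower. Without tumour 1, tumour 2 or tumour 3 the immune genes called lower were 2, 0 and 0, 1 endothelial gene was lower without tumour 3 and 1 with the glial and mural gate, 1 ependymal and choroid plexus gene was higher without tumour 2, and the red blood cell genes were 4 without tumour 1 and 0 without tumour 3.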
